A study of Homo sapiens with 10 samples.

Results

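The cytoplasmic ribosomal protein (RP) genes were followed through the H3K27ac data of H1975 cells. Members were the rows of the deposited annotated table whose gene symbol named an RPL or RPS gene, written as RPL or RPS, a number and at most a final A or L, or RPLP0, RPLP1, RPLP2 or RPSA. The rule found 174 regions of 502 bp, labelled with 70 genes, of 67387 annotated regions and 169637 counted regions. Of the 174 regions, 114 lay within 1 kb of a transcription start site (TSS) and are called promoter regions here, and the other 60 lay farther away. A symbol is the nearest annotated gene, so it does not show that a distant region acts on that gene. H3K27ac, acetylation of lysine 27 of histone H3, is found at active promoters and enhancers, and the assay was ChIP-seq, in which chromatin is immunoprecipitated and the recovered DNA sequenced.

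H1975 is an established human lung adenocarcinoma line with mutant EGFR, and all groups came from this single line. Osimertinib drug tolerant persisters (osimertinib DTP) were cells kept for 24 days in osimertinib, which inhibits mutant EGFR, at 500 nM. In the combination group (osimertinib DTP + AZD5153), 21 days of 500 nM osimertinib were followed by 3 days of 150 nM AZD5153, a bromodomain inhibitor. The sources used here do not say whether osimertinib was still present in those 3 days. Control cells (DMSO) spent 21 days without drug and then 3 days in DMSO. Each group had 3 biological replicates, and 1 pooled input library held chromatin that was not immunoprecipitated. The epithelial genes EPCAM, KRT8, KRT18, CDH1 and EGFR each had an acetylated promoter region, with 262, 569, 119, 122 and 263 reads in DMSO replicate 1. No promoter region was labelled with PTPRC (leukocytes), CD3E (T cells), PECAM1 (endothelium) or ALB (hepatocytes), whereas 1 was labelled with COL1A1 (fibroblasts). It had 100, 88 and 43 reads in DMSO, 155, 320 and 146 in osimertinib DTP, with 94, 123 and 169 in the combination. Every osimertinib DTP library was above every DMSO library there, and the part of this in the results was not tested.

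Cytoplasmic ribosomes join a small subunit, built with the RPS proteins, to a large subunit, built with the RPL proteins. RPLP0, RPLP1 and RPLP2 form the stalk of the large subunit that recruits translation factors, and RPSA belongs to the small subunit. RP genes are transcribed at a high rate in nearly all dividing cells, and most of their messages begin with a C followed by a run of pyrimidines, the terminal oligopyrimidine (TOP) motif, through which mTOR signalling controls their translation. RPL5 and RPL11 also bind MDM2 and so link ribosome assembly to p53. RPS27L and RPL39L are paralogs of RPS27 and RPL39 with more restricted expression.

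Totals over all regions ranged from 6263443 to 10463351 counts per H3K27ac library, against 1870885 in the input. A pair of libraries stood apart. Combination replicate 3 had the lowest total, and its Spearman correlation with replicates 1 and 2 over all 157919 tested regions was 0.45 and 0.37, against 0.89 between those 2. Promoter regions took 52.9% of its counts and 50.8% of those of osimertinib DTP replicate 2, against 29.3% to 34.8% in the other 7 libraries. Some results that rest on these libraries are given below with and without them, and the part these libraries play in other results was not tested.

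Sequence was looked at first, since the rule used only symbols. For 54 of the 70 genes, RefSeq (GRCh38.p14) had a promoter entry, 250 bases before to 50 bases from the start, within 1 kb of the gene's highest promoter region. A TOP start (a C at the first transcribed base and at least 4 pyrimidines after it) was found in 38 of these 54 promoters (70.4%), against 442 of the 8257 genes with such an entry (5.35%). The letters TCTCGCGA, a box bound by ZBTB33, were found on either strand in 9 of 54 (16.7%) against 2.79%, and the ETS core CCGGAAG in 17 of 54 (31.5%) against 20.9%. The GC box GGGCGG was less frequent, in 31 of 54 (57.4%) against 73.6%, as was the E-box CACGTG, in 2 of 54 (3.70%) against 10.3%. AAGATGG (YY1) was in 6 of 54 (11.1%) against 7.93%, and TATAAA in 4 of 54 (7.41%) against 4.82%. No motif searched contains another, and the shares are descriptions of these windows and not of bound factors.

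The promoters of 9 genes described below, and those of RPL34 and RPL35A, which had few reads in 1 library, show these features. Each line runs 5′ to 3′ from 120 bases before the RefSeq start through 30 bases from it. Capitals mark the pyrimidine run of a TOP start, CCGGAAG and TCTCGCGA, the last 2 on either strand.
RPSA, chr3:39406600-39406749, plus strand: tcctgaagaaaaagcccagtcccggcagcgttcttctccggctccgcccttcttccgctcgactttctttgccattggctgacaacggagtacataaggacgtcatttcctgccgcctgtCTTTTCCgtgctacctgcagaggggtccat
RPS6, chr9:19380207-19380356, minus strand: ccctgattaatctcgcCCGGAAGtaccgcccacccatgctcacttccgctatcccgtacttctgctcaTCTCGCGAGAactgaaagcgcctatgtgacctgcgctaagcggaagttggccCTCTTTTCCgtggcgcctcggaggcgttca
RPS14, chr5:150449710-150449859, minus strand: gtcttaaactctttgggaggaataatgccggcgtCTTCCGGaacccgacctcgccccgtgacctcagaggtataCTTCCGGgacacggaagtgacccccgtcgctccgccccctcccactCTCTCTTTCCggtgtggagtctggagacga
RPS19, chr19:41860135-41860284, plus strand: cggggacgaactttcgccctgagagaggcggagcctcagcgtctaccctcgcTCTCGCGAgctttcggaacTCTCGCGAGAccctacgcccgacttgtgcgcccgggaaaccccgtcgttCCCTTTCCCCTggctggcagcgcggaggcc
RPL3, chr22:39319594-39319743, minus strand: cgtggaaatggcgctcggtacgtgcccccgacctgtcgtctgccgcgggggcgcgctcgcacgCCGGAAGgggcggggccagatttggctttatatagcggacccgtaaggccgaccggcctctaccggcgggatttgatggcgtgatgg
RPL11, chr1:23691686-23691835, plus strand: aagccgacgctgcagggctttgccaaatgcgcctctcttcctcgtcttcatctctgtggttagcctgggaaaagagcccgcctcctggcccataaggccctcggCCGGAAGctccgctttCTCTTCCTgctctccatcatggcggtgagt
RPL22, chr1:6199566-6199715, minus strand: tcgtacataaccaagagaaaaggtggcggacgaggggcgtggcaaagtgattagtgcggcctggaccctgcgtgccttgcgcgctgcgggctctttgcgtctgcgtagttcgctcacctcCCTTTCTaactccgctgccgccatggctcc
RPLP0, chr12:120201082-120201231, minus strand: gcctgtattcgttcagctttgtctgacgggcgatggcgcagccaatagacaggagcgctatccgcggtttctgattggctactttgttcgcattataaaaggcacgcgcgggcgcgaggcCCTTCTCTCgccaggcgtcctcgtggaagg
RPLP1, chr15:69452698-69452847, plus strand: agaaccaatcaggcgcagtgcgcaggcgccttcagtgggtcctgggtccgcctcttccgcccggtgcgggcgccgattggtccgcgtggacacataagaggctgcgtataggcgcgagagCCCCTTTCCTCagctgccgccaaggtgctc
RPL34, chr4:108620509-108620658, plus strand: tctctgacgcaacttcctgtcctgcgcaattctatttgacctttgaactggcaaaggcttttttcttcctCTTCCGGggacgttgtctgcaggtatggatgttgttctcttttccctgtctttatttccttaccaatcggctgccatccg
RPL35A, chr3:197950070-197950219, plus strand: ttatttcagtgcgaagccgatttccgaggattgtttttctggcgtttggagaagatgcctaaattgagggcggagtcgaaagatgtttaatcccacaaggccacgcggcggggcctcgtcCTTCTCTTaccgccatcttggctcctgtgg
A pyrimidine run stands at the first transcribed base in 9 of these 11 promoters. It is missing at the RefSeq starts of RPL3 and RPL34. RPS19 carries the TCTCGCGA box at 2 places and RPS6 at 1.

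RP promoters were strongly acetylated in all groups. The median RP promoter region held 219.5, 224 and 165.5 reads in the 3 DMSO libraries and 188, 197 and 126 in osimertinib DTP. It held 199.5, 178 and 122.5 reads in the combination. The input, a smaller library of 1870885 counts, had a median of 14.5 reads. Over all 24296 promoter regions, the median was 103, 115 and 90 reads in DMSO, 94, 140 and 82 in osimertinib DTP, with 98, 85 and 88 in the combination. The RP median was the higher one in each of the 9 libraries. DMSO libraries had an RP median 1.97 ± 0.148 times that of all promoter regions, osimertinib DTP libraries 1.65 ± 0.312 times and combination libraries 1.84 ± 0.390 times (SD, n = 3), and the ranges overlapped. The lowest ratios, 1.41 and 1.39, belonged to the 2 libraries that stood apart. RP promoter regions took 0.244% ± 0.0180 of all counts in DMSO, 0.241% ± 0.0462 in osimertinib DTP and 0.258% ± 0.0339 in the combination (SD, n = 3). They took 0.0981% of the counts of the input.

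**Figure D1:**
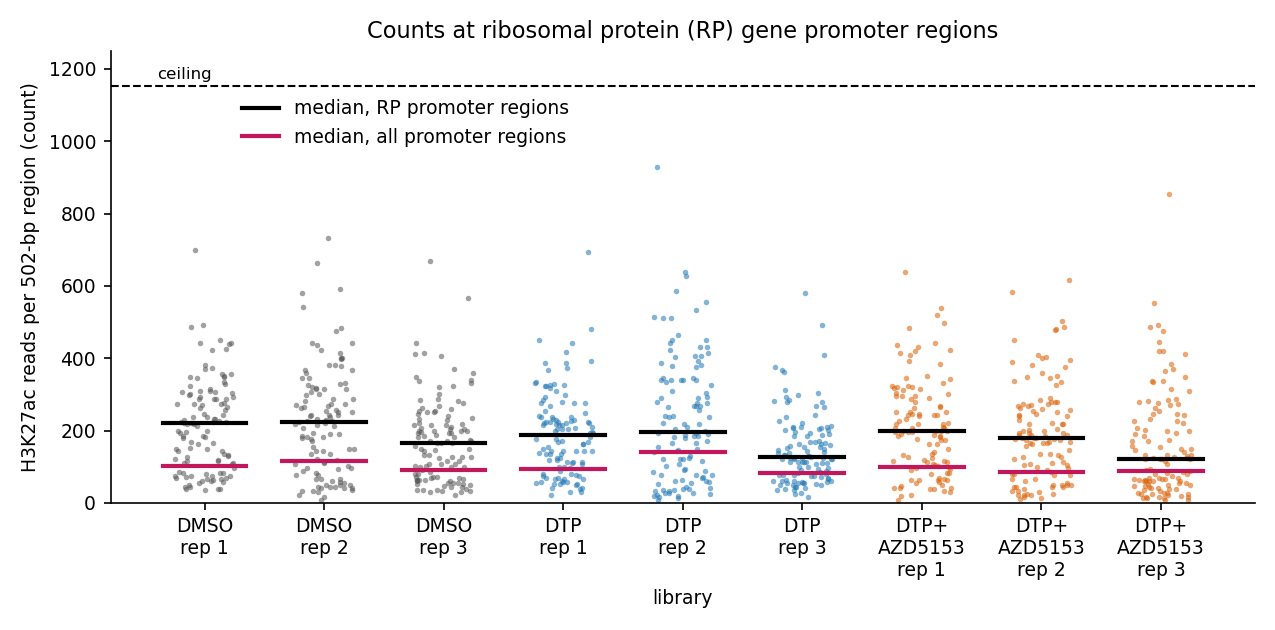
Reads per 502-bp region (y axis) at the 114 RP promoter regions in each H3K27ac library (x axis); each point is a region, the black bar is the RP median and the red bar the median of all 24296 promoter regions. The black bar lies above the red one in all 9 libraries, and every point lies below the dashed ceiling.

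If a library keeps at most 1 read per start position and strand, the count of a 502-bp region cannot exceed the number of such starts from which a 75-base read overlaps it, called the ceiling here. Whether duplicate reads were removed is not given in the sources used here. The highest count of any region in any library was 1148, just under the ceiling. The highest RP promoter count of a library was 50.4% to 80.6% of it. No RP promoter region reached 90% of the ceiling in any library, and 0 to 8 of all 24296 promoter regions did. When each count was corrected for the share of starts already filled under that assumption, 18, 0 and 18 RP-labelled regions passed in the 3 comparisons below, against 17, 0 and 17 with the counts as deposited. Over all tested regions, the corrected counts gave 9706 higher and 7582 lower in osimertinib DTP against DMSO, against 8814 and 8107. In the combination against DMSO they gave 14895 and 14065, against 14286 and 14232.

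Acetylation differed widely among RP genes, and in much the same order in each group. For the highest promoter region of each gene, mean CPM (reads relative to the library's total, scaled by TMM) over the 9 libraries was lowest for RPLP2, at 4.65. The median was 28.5 CPM for RP genes and 17.8 for the 12295 genes with a promoter region. RPL7, RPL10, RPL7A and RPL12, all of the large subunit, were among the 5 highest, at 61.5, 51.3, 51.0 and 49.6 CPM. RPL7 had 491, 664 and 567 reads in DMSO, 481, 637 and 493 in osimertinib DTP, with 519, 583 and 411 in the combination. The 5 lowest of the 114 promoter regions, at RPL36A, RPL39L, RPL26, RPL13A and RPL35A, had 3.01 to 4.40 CPM, and each of these genes had another promoter region with more. Large-subunit and stalk genes (44) and small-subunit genes (26) had similar medians, 28.8 and 27.6 CPM. Over the 114 regions, the Spearman correlation between group means was 0.94 for DMSO and osimertinib DTP and 0.92 for DMSO and the combination. Over all 24296 promoter regions it was 0.79 and 0.74. Over the 114 regions, the value for DMSO and the combination was 0.90 without combination replicate 3. That library had correlations of 0.66 and 0.68 with combination replicates 1 and 2 there. These are correlations across regions of the same libraries and have no p-value.

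All 3 stalk genes lay below the median CPM of RP genes, at the highest promoter region of each gene. RPLP0 (chr12:120200707-120201208) had 256, 252 and 193 reads in DMSO, 232, 339 and 184 in osimertinib DTP, with 199, 187 and 185 in the combination. RPLP1 (chr15:69452931-69453432) had 219, 191 and 127 reads, 203, 386 and 132, and 140, 134 and 283 in the same order, so its highest values were in the 2 libraries that stood apart. RPLP2 (chr11:811078-811579), the lowest, had 62, 42 and 49 reads, 53, 14 and 57, and 33, 24 and 42. Groups overlapped for all 3 genes. Of the 70 genes, 18 had the RefSeq start of another gene within 1 kb of this region, among them RPL12 (LRSAM1), RPL27A (TRIM66), RPL15 (NKIRAS1), RPL35 (ARPC5L) and RPL9 (LIAS), and such a region cannot be assigned to either gene alone.

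Peaks listed by the authors covered RP promoters broadly, and farther downstream of the start than upstream. All 70 highest regions overlapped a listed peak in 8 of the 9 libraries, and 69 did in combination replicate 3, where RPL34 had none. Of all 12295 genes, 93.1% to 98.1% had such a peak. Within 2 kb either side of the region's centre, peaks covered a median of 2293 bp ± 190 per RP gene in DMSO, 2477 bp ± 114 in osimertinib DTP and 2404 bp ± 161 in the combination (SD over library medians, n = 3). The same medians over all genes were 1663 ± 81.6, 1813 ± 0.577 and 1733 ± 213 bp. The fold enrichment of the peak, a ratio over background given by the authors, had an RP median of 12.2 to 30.6 per library and was above the median of all genes in 9 of 9 libraries. RPL28, RPL26 and RPL23A had the widest coverage, and RPL39L, RPL6 and RPL34 the narrowest. At 1000 bp downstream of the RefSeq start, 74.1% to 98.1% of 54 RP genes lay in a peak (median of the libraries 90.7%), against 36.2% to 58.2% of the 8257 genes with a promoter entry. At 1000 bp upstream, the ranges were 29.6% to 42.6% and 29.7% to 38.96%. At 500 bp upstream the ranges also overlapped, with 59.3% to 83.3% of RP genes (median 70.4%) and 59.8% to 74.9% of all genes (median 63.3%). At the start itself 88.9% to 100% of RP genes lay in a peak (median 98.1%), against 62.1% to 94.2% (median 75.4%).

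**Figure D2:**
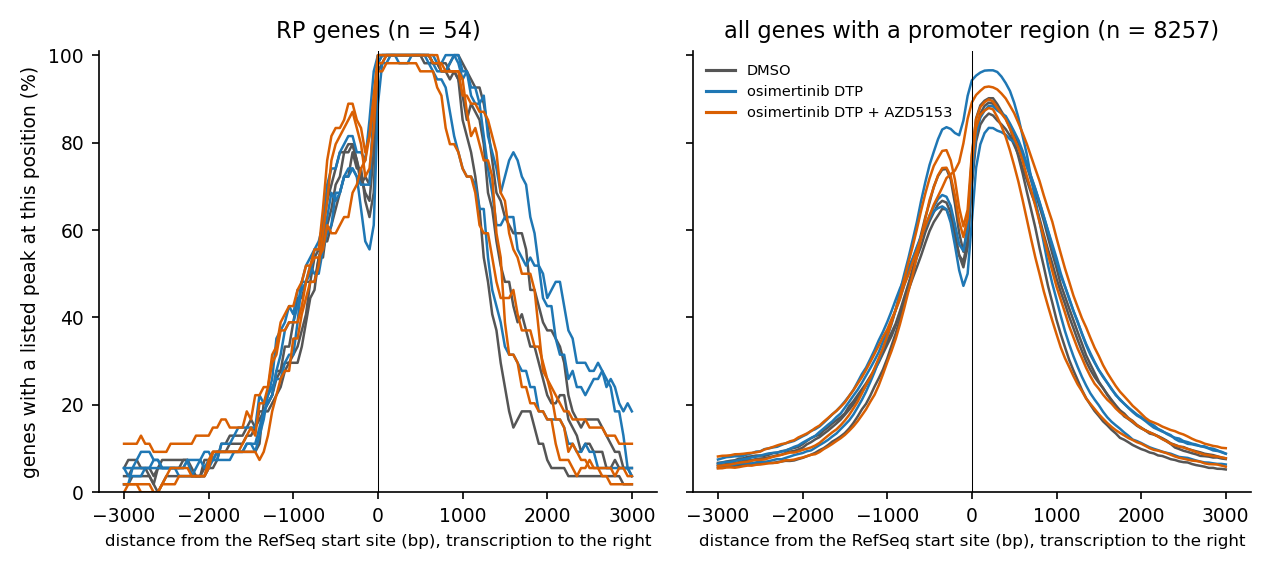
Share of genes in a listed H3K27ac peak (y axis, percent) by distance from the RefSeq start (x axis, bp, transcription to the right), for 54 RP genes (left) and all 8257 genes (right); each line is a library, coloured by group. At 1000 bp the RP lines lie at 74.1% to 98.1% and the lines of all genes at 36.2% to 58.2%, while at -1000 bp both lie between 29.6% and 42.6%.

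The first comparison asked what differed in osimertinib DTP against DMSO. No RP promoter region passed the threshold: 0 of 114 were called by edgeR's quasi-likelihood test at an adjusted p of 0.05 (Benjamini-Hochberg over 157919 regions), against 4.63% of all promoter regions and 10.7% of all tested regions. The smallest adjusted p among the 114 was 0.20, and 0 had an unadjusted p under 0.05, against 3138 of all 24296 promoter regions. DESeq2 also called 0, against 963 higher and 900 lower of all 24286 promoter regions it tested. Fitted on these 2 groups alone, edgeR called 1, against 2344 higher and 1108 lower of 24287. Limma-voom with library quality weights called 3, against 2074 higher and 2026 lower of 24296. The median log2 fold change was 0.11 over RP promoter regions, with 69 of 114 above 0, and 0.35 over all promoter regions. The interquartile range was -0.16 to 0.30 for the RP values and -0.10 to 0.77 for all promoter regions. A change of more than 2-fold in either direction was estimated at 2 of 114 RP promoter regions (1.75%) and at 22.5% of all. The sign of the RP median was not stable. It was -0.02 with library sizes not scaled by TMM, -0.12 with a loess offset and -0.25 without osimertinib DTP replicate 2.

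Genes with different roles gave the same picture, with standard errors larger than nearly all estimates. RPS6, the substrate of S6 kinases, had 198, 265 and 214 reads in DMSO and 144, 194 and 129 in osimertinib DTP at chr9:19379666-19380167, a log2 fold change of -0.32 ± 0.51 (SE). RPSA had 301, 307 and 186 against 236, 340 and 162 reads (0.15 ± 0.54). RPL5 had 287, 317 and 217 against 268, 310 and 137 reads (0.03 ± 0.52), and RPL11 had 220, 212 and 165 against 203, 166 and 96 (-0.16 ± 0.51). In raw reads, DMSO and osimertinib DTP overlapped at RPSA, RPL5 and RPL11 and stood just apart at RPS6. RPL3, at the peptidyl transferase centre, stood at -0.00 ± 0.46, RPL10, which joins the large subunit late in its assembly, at 0.34 ± 0.55, and RPL22 at 0.39 ± 0.61. For the small subunit, RPS3 was at 0.14 ± 0.51, RPS14, deleted in the 5q- syndrome, at -0.01 ± 0.50, RPS19, mutated in Diamond-Blackfan anaemia, at 0.38 ± 0.57, and RPS27A, which is made as a fusion with ubiquitin, at 0.15 ± 0.49. RPLP0, RPLP1 and RPLP2 were at 0.35 ± 0.52, 0.72 ± 0.64 and -0.21 ± 0.59. The standard error of an RP promoter region had a median of 0.53, and the 2 regions with estimates beyond 2-fold did not pass, so changes of about 2-fold were not detectable at this depth and spread.

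**Figure D3:**
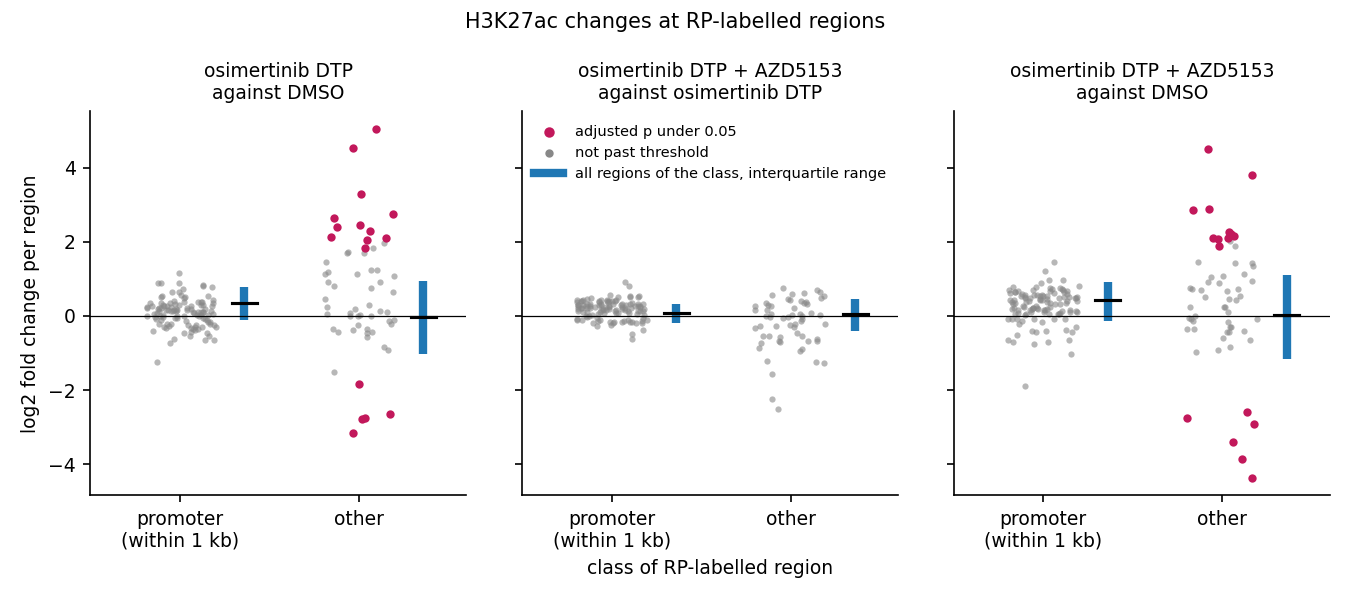
Log2 fold change (y axis) of each RP-labelled region by class (x axis) in the 3 comparisons; red points passed an adjusted p of 0.05, grey points did not, and the blue bar with its black line gives the interquartile range and median of all regions of the class. No promoter point is red, and the red points among the other regions lie between -4.37 and 5.04.

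Away from promoters, 17 of 60 RP-labelled regions were called in osimertinib DTP against DMSO, 12 higher and 5 lower, against 19.6% of all other annotated regions. They carried the symbols of 6 genes, and only 3 of the 17 lay inside the RefSeq bounds of the gene they were named for. Of all 60 such regions, 10 did, 8 lay in another gene and 42 in none. Many of these calls needed all libraries. Without DMSO replicate 2, 16 of the 17 were lost, without DMSO replicate 1 or 3 10 and 12, and without osimertinib DTP replicate 1, 2 or 3 6, 12 and 12. Calls over all tested regions, 8814 higher and 8107 lower, also fell, to 668 and 482 without DMSO replicate 2. Without DMSO replicate 1 or 3 they fell to 3608 and 4616, and to 1324 and 1836. Without osimertinib DTP replicate 1, 2 or 3 they were 5634 and 2830, 3326 and 1599, and 3010 and 1471. The region chr14:49505798-49506299, described next, was called in all 9 fits that left out a library. In bulk chromatin, a change in the share of cells that carry the mark and a change within each cell cannot be told apart.

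The highest increases were labelled RPS29, a small-subunit protein. All but 1 lay 40249 to 80953 bp from its TSS, outside its RefSeq bounds. The region chr14:49505798-49506299 had 3, 2 and 1 reads in DMSO, 37, 73 and 69 in osimertinib DTP, with 31, 75 and 11 in the combination. All 6 drug-treated libraries were above DMSO, and the fitted log2 difference was 5.04 ± 0.81 (SE), with an adjusted p of 0.0034. Its neighbour chr14:49504871-49505372 had 10, 8 and 4 reads in DMSO, rising to 132, 124 and 201 in osimertinib DTP (4.52, adjusted p = 0.0058). In the combination it had 72, 191 and 5 reads, so the third library lay within the DMSO range. In this group 3 further regions rose by 3.29, 2.76 and 2.64, and a sixth, chr14:49595049-49595550, an intron of RPS29 itself, rose from 12, 4 and 11 reads to 59, 21 and 29 (2.12, adjusted p = 0.045). That last call did not hold without any 1 of the 6 libraries of DMSO and osimertinib DTP. The promoter region of RPS29 did not pass, with 231, 255 and 183 reads in DMSO against 205, 181 and 157.

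RPS27L, a p53 target and paralog of RPS27, gave the other 2 of the 3 called regions that lay inside the gene they were named for. In its 3′ UTR, chr15:63151515-63152016 had 17, 9 and 10 reads in DMSO, 59, 42 and 57 in osimertinib DTP, with 72, 40 and 25 in the combination. No drug-treated library overlapped the DMSO libraries there, and the log2 fold change was 2.29 (adjusted p = 0.016). Its neighbour chr15:63150976-63151477 rose by 1.82 (adjusted p = 0.044). When a library was left out, the first call was lost in 3 of 9 fits (without DMSO replicate 2, DMSO replicate 3 or osimertinib DTP replicate 3) and the second in 7. The region chr15:63150054-63150555 had 69, 31 and 32 against 121, 104 and 156 reads and missed the threshold (1.71, adjusted p = 0.056). Its 2 promoter regions had log2 fold changes of 0.88 and 1.16, with adjusted p of 0.39 and 0.20. The second, chr15:63156230-63156731, passed when combination replicate 3 was left out of the fit (1.16, adjusted p = 0.044). That fit called 2225 higher and 1244 lower of all 24296 promoter regions.

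RPL39L, the paralog of RPL39 that is highest in testis, gave its symbol to 9 other regions. The 3 that were called higher lay in an intron by the deposited annotation but outside its RefSeq bounds. The median log2 fold change of the 9 was 1.45. At chr3:187169824-187170325 the DMSO libraries had 29, 20 and 23 reads and those of osimertinib DTP 79, 85 and 189 (2.45, adjusted p = 0.032), and 71, 186 and 14 in the combination. The others rose by 2.04 (adjusted p = 0.038) and 2.11 (adjusted p = 0.035). Of the 9 leave-one-out fits, 5, 6 and 5 lost these calls, including each fit with 1 DMSO library missing. With the replicate number as a block, the first 2 of these 3 lost their calls (adjusted p = 0.057 and 0.051) while a region labelled RPS14 gained one (0.045). Whether the numbers mark pairs was not tested. A region labelled RPS27, chr1:154001268-154001769, lay within NUP210L and rose from 8, 12 and 9 reads to 24, 46 and 65 (2.39, adjusted p = 0.030), a call lost in 5 of 9 such fits.

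The decreases were labelled RPL21 and RPL27, and none lay in those genes. The 3 RPL21-labelled regions were on chromosome 10 (chr10:120393337-120395138), where the deposited annotation placed a transcript of that symbol, while RefSeq has RPL21 on chromosome 13. The middle one had 93, 168 and 89 reads in DMSO, 20, 8 and 19 in osimertinib DTP, with 21, 9 and 7 in the combination, and no drug-treated library reached the DMSO range. The log2 fold changes of the 3 were -2.77, -2.79 and -3.16 (adjusted p = 0.015, 0.0084 and 0.0059), and 5, 2 and 1 of the 9 leave-one-out fits lost the call. The promoter of RPL21 itself, on chromosome 13, had 225, 397 and 281 reads in DMSO and 163, 292 and 213 in osimertinib DTP, a log2 fold change of -0.21 that did not pass. The RPL27-labelled pair lay in RUNDC1. Its 3′ UTR region chr17:42990576-42991077 had 210, 308 and 256 reads in DMSO, 84, 11 and 25 in osimertinib DTP, with 19, 6 and 14 in the combination (-2.65, adjusted p = 0.020), and the exon region fell from 81, 111 and 112 reads to 39, 17 and 22 (-1.85, adjusted p = 0.035). The leave-one-out fits lost these calls 4 and 6 times.

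**Figure D4:**
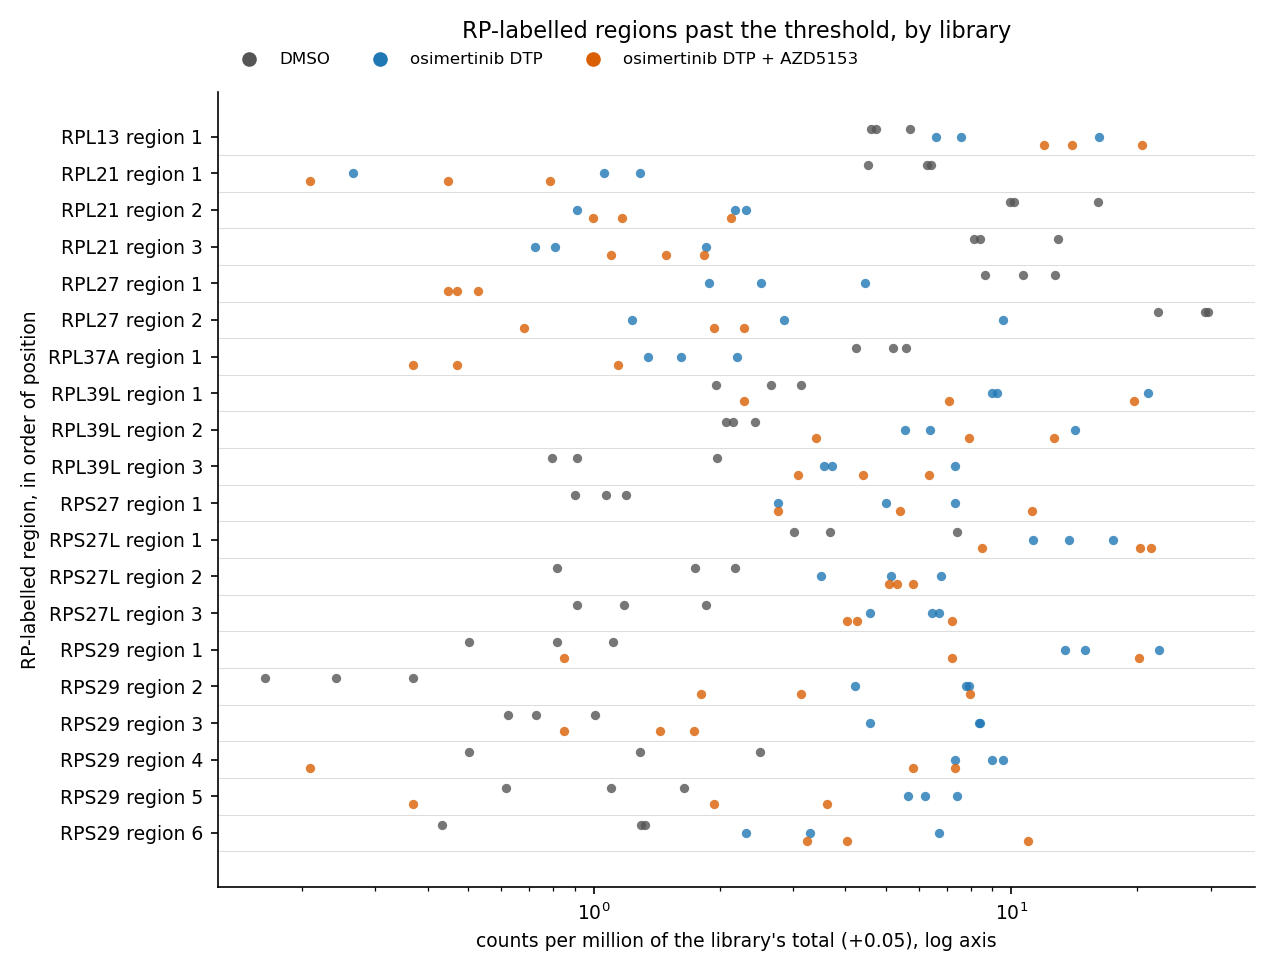
CPM, here relative to each library's total, plus 0.05 (x axis, log scale) at the 20 RP-labelled regions outside promoters that passed in at least 1 comparison (y axis); each point is a library, coloured by group. The RPL21, RPL27 and RPL37A points of DMSO lie to the right of those of both drug-treated groups, and the RPS29 points of DMSO lie to the left of those of osimertinib DTP.

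The second comparison set the combination, with 3 days of AZD5153, against osimertinib DTP. The labels give 21 days of osimertinib in the combination and 24 in osimertinib DTP. A part of AZD5153 therefore cannot be told apart from one of the osimertinib schedule. In osimertinib DTP + AZD5153 against osimertinib DTP, 0 of 174 RP-labelled regions passed edgeR's test. The background was also empty, with 0% of all promoter regions, 0% of other annotated regions and 0% of all tested regions called. At an unadjusted p under 0.05 there were 0 of 114 RP promoter regions and 3 of the other 60. The same threshold took 435 of all 24296 promoter regions and 2579 of all 43091 other annotated regions. DESeq2 called 0, against 16 higher and 59 lower of all 146588 regions it tested. Limma-voom with library quality weights called 3, all lower, against 2564 higher and 2442 lower of all 157919. The median log2 fold change of RP promoter regions was 0.21, with 88 of 114 above 0, against 0.08 over all promoter regions. Without osimertinib DTP replicate 3 it was -0.06 and without osimertinib DTP replicate 2 it was 0.50, so 1 library set its sign.

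The smallest p-values were at regions outside RP genes. The RPL27-labelled exon region in RUNDC1 (chr17:42989483-42989984) had 39, 17 and 22 reads in osimertinib DTP, compared with 4, 4 and 3 in the combination, without overlap (-2.52, adjusted p = 0.89). The RPS29-labelled chr14:49507756-49508257 went from 74, 42 and 74 to 14, 16 and 5 reads (-2.24, adjusted p = 0.94), and chr14:49545575-49546076 from 65, 52 and 55 to 19, 34 and 2 (-1.56, adjusted p = 1.00). The last 2 had been called higher in osimertinib DTP than in DMSO, and the comparisons share the osimertinib DTP libraries. When combination replicate 3 was left out, 103 of all 161758 tested regions were called higher and 95 lower. Among RP-labelled regions 1 passed, chr22:39289481-39289982, labelled RPL3 and 23723 bp from its TSS. It had 42, 45 and 80 reads in osimertinib DTP, 5 and 7 in combination replicates 1 and 2, and 55 in replicate 3, and its log2 fold change was -3.20 (adjusted p = 0.040) without that library and -0.67 with it. RPL3, with 16 regions between 1447 and 30111 bp from its TSS, labelled more regions outside promoters than any other member, and none of them passed in the fits with all libraries.

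The third comparison set the combination against DMSO. Again 0 of 114 RP promoter regions passed, against 8.5% of all promoter regions and 18.1% of all tested regions. At an unadjusted p under 0.05 there were 2 of 114, against 4514 of all 24296 promoter regions. DESeq2 called 2 of the 114, against 2030 higher and 1103 lower of all 24286 promoter regions it tested. Limma-voom with library quality weights called 11, against 4099 higher and 3563 lower of all 24296. With the replicate block, without TMM and on annotated regions alone, edgeR called 1 in each fit. Over all promoter regions those fits called 1024, 994 and 1723 higher, with 859, 1022 and 1003 lower. The median log2 fold change was 0.34 with 91 of 114 above 0, against 0.42 over all promoter regions, and fell to 0.08 without combination replicate 3. More than 2-fold changes were estimated at 4 of 114 (3.51%), against 29.6% of all promoter regions. The region closest to the threshold was the downstream promoter region of RPL39L (chr3:187138351-187138852). It had 57, 50 and 64 reads in DMSO, 22, 8 and 37 in osimertinib DTP, with 7, 11 and 14 in the combination, and all 6 drug-treated libraries were below DMSO (-1.88, adjusted p = 0.051). With the replicate block its adjusted p was 0.030.

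Leaving out combination replicate 3 brought 3 of the 114 RP promoter regions past the threshold in this comparison. Over all 24296 promoter regions, that fit called 2029 higher and 2295 lower. The RPL39L region had a log2 fold change of -2.50 (adjusted p = 0.0030). RPS15A, at chr16:18791120-18791621, had 67, 65 and 72 reads in DMSO and 30, 17 and 26 in the combination (-1.42, adjusted p = 0.027). RPS27L, at chr15:63156230-63156731, had 74, 41 and 35 reads in DMSO and 202, 111 and 34 in the combination (1.77, adjusted p = 0.0045). The low value of RPS27L, 34 reads, is that of the library left out.

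Of the 60 other regions, 17 passed, 11 higher and 6 lower, against 29.3% of all other annotated regions, and 14 of the 17 had also passed in osimertinib DTP against DMSO. Both comparisons share the DMSO libraries. Without DMSO replicate 2, 9 of the 17 calls were lost, and without DMSO replicate 3, 7. Over all tested regions, 14286 higher and 14232 lower became 3943 and 4526 without DMSO replicate 2. Without DMSO replicate 3 they became 4172 and 5843. The 3 RPS27L regions in the 3′ UTR rose by 2.10, 2.09 and 2.25 (adjusted p = 0.017, 0.017 and 0.011). The RPL27-labelled pair fell by 4.37 and 3.87 on the log2 scale (adjusted p = 0.0012 and 0.0029), and the RPL21-labelled group had log2 fold changes of -3.39, -2.92 and -2.58 (adjusted p = 0.0046, 0.0042 and 0.0080). The regions that passed only here were chr15:63150054-63150555 of RPS27L, an RPL37A-labelled intron of SMARCAL1 (chr2:216478528-216479029) and the 3′ UTR of RPL13. The RPL37A-labelled region had 52, 54 and 37 reads in DMSO, 19, 12 and 14 in osimertinib DTP, with 11, 4 and 2 in the combination (-2.76, adjusted p = 0.0081). The RPL13 region (chr16:89565578-89566079) had 43, 49 and 50 reads in DMSO, 58, 150 and 67 in osimertinib DTP, with 120, 132 and 128 in the combination (1.89, adjusted p = 0.039), a call lost without any 1 of the DMSO libraries or combination replicate 1. Its counts in the combination were above all of DMSO, while the promoter of RPL13 had 334, 380 and 332 against 346, 358 and 273 reads. For none of these 3 was the difference between the 2 comparisons tested beyond the comparison of the combination with osimertinib DTP, where none passed. Of the RPS29-labelled regions, 3 passed here, and the 3 that no longer did had log2 fold changes of 1.05, 1.88 and 1.08.

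Promoter regions of other genes of the translation machinery were counted the same way, against the same 4.63% (osimertinib DTP) and 8.5% (combination) of all promoter regions called against DMSO. The lists are small, and no difference between them and the RP genes was tested. Of 99 promoter regions of mitochondrial ribosomal proteins (67 genes), 0 were called in osimertinib DTP and 2, both of MRPL38, were higher in the combination than in DMSO, with medians of 0.11 and 0.27. Translation elongation factors had 0 of 27 called in all 3 comparisons (medians 0.44, 0.07 and 0.52), and mTOR pathway genes 0 of 31 (0.51, 0.20 and 0.60). Of 58 promoter regions of initiation factors, 2 were higher in osimertinib DTP, both of EIF3H, and 1 in the combination, EIF3F. Of 84 promoter regions of ribosome biogenesis factors, 3 were higher in osimertinib DTP and 6 in the combination, and none lower. BOP1, needed to process the rRNA of the large subunit, had the largest log2 fold change of that list in both, with 18, 7 and 9 reads in DMSO, 48, 224 and 90 in osimertinib DTP (3.75, adjusted p = 0.011) and 59, 74 and 168 in the combination (3.81, adjusted p = 0.0063). A promoter region here lies near a start in the deposited annotation, which need not be the gene's main start. DDX47, a helicase of rRNA processing, gave 2 of the 3 and 4 of the 6. DDX47 had these spread over chr12:12820233-12825235, too far apart for all to lie within 1 kb of 1 start. At chr12:12824734-12825235 it had 31, 6 and 13 reads in DMSO, 82, 52 and 102 in osimertinib DTP, with 189, 174 and 74 in the combination, with log2 fold changes of 2.40 (adjusted p = 0.019) and 3.48 (adjusted p = 0.0023). TCOF1, which supports rDNA transcription, rose in the combination from 23, 18 and 12 to 129, 70 and 12 reads (2.19, adjusted p = 0.023), the third library being at the DMSO level. Of 32 promoter regions of RNA polymerase I genes, 1 was higher in the combination, POLR1A. No list had a promoter region called in the combination against osimertinib DTP.

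Some RP genes are outside the 70. RPL4 and RPS25 share their promoters with ZWILCH and TRAPPC4, whose symbols the regions carried. The RPL4 one (chr15:66504768-66505269) had 259, 306 and 205 reads in DMSO, 225, 221 and 188 in osimertinib DTP, with 325, 296 and 75 in the combination, and the RPS25 one (chr11:119018325-119018826) 200, 214 and 127, 191, 277 and 171, and 295, 236 and 178. Neither passed in any comparison. RPL23, RPL24, RPS9, RPS18 and RPS20, and the paralogs RPL3L and RPL10L, labelled no annotated region and are not analysed here.

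Replicates of a group differed widely at some RP promoters. In combination replicate 3, the highest promoter region of RPL34 (chr4:108620500-108621001) had 18 reads, against 188 and 178 in replicates 1 and 2. RPL35A (chr3:197949801-197950302) had 47 against 437 and 450, and RPL41 61 against 352 and 349. RPS7 went the other way, with 347 against 185 and 166 reads, as did RPLP1 (283 against 140 and 134). On the log2 (CPM + 0.5) scale, the difference of that library from the mean of the other 2 ran from -2.35 to 1.87, below 0 for 19 genes and above 0 for 51. In osimertinib DTP replicate 2 it ran from -1.27 to 1.87 and was above 0 for 68 of 70 genes. Across the 54 genes with a promoter entry, the 2 differences had a Pearson correlation of 0.80, and across all 8257 genes of 0.73. The GC content of the 300-base window had a correlation of 0.47 with the difference in combination replicate 3 (0.57 over all genes), of 0.35 with that in osimertinib DTP replicate 2 (0.47), and of -0.26 with that of DMSO replicate 2 from DMSO replicates 1 and 3 (-0.20). These are correlations across genes of the same libraries, which share depth and base composition, and carry no p-value. The part of GC content in any result was not tested.

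**Figure D5:**
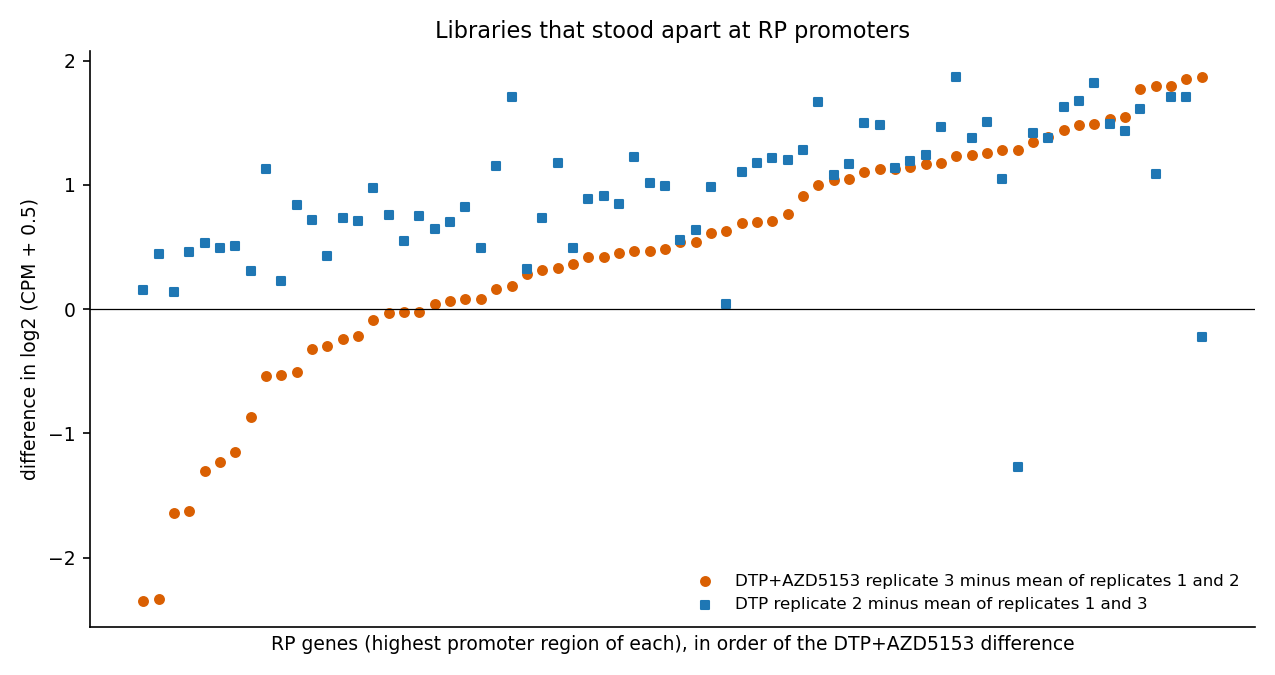
Difference in log2 (CPM + 0.5) between the library that stood apart and the mean of the other 2 of its group (y axis) for the highest promoter region of each of 70 RP genes (x axis, in order of the first difference), for combination replicate 3 (circles) and osimertinib DTP replicate 2 (squares). The circles run from -2.35 at RPL34 to 1.87 at RPS28, and 68 of 70 squares lie above 0.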

How the data were processed

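H3K27ac ChIP-seq of H1975 cells was analysed in 9 libraries, 3 per group, with 1 pooled input. Per the labels, chromatin was sonicated and sequenced as single-end 75-base reads. The submitters' processing notes name BWA 0.7.17, MACS2 2.2.6, featureCounts 2.0.0, ChIPseeker 1.29.1 and hg38. Their parameters, and whether duplicate reads were removed, are not given in the sources used here. The authors deposited raw counts per 502-bp region, in a table of all regions and an annotated one whose counts were equal, and 1 peak list per library. These lists, as deposited, hold a fold enrichment (a ratio over background) and −log10 p and q of every peak. The paper given with the series does not describe this ChIP-seq experiment.

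Members and gene lists were chosen with earlier results of these data known. Groups came from the sample titles. The test was the quasi-likelihood test of edgeR 4.0.16 in R 4.3.3 (with limma 3.58.1), after filterByExpr at a minimum count of 10 and TMM scaling, with robust estimation in 1 fit of the 9 libraries. All 174 member regions were among the 157919 tested, over which p-values were adjusted (Benjamini-Hochberg, threshold 0.05). The fit was also run on simulated counts that held the library sizes but not the deviations of the libraries that stood apart. That run therefore does not show how the fit handles such libraries. CPM values were scaled by TMM. Promoter sequences came from RefSeq (GRCh38.p14, the same assembly as hg38). Alternatives were DESeq2 1.42.0, library sizes without TMM, a loess offset, no filter, annotated regions alone, each pair of groups alone, a replicate block, counts corrected for filled positions, limma-voom with library quality weights, and leaving out each library.

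Replicate numbers paired DMSO with osimertinib DTP (correlations of same-numbered deviations 0.35, 0.37 and 0.34), but not the combination with osimertinib DTP (0.27, -0.01 and -0.27) or with DMSO (-0.01, 0.55 and 0.35). The genes named were those fixed for their role (stalk, RPSA, RPS6, RPL3, RPL5, RPL10, RPL11, RPL22, RPL23, RPS3, RPS14, RPS19, RPS27A), the paralogs, every gene with a region past the threshold, the 5 highest and 5 lowest promoter regions, and the 3 smallest p-values where none passed. Results for some items under this rule are not reported here. Genes named for their deviation in 1 library were chosen after their values were seen.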

Additional observations from a re-analysis of the deposited data

How the results depend on the processing

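The counts of RP-labelled regions called depended on the libraries and the tool, as did the calls over all tested regions. In osimertinib DTP against DMSO, 8814 of all tested regions were higher and 8107 lower. These counts became 668 and 482 without DMSO replicate 2, 22942 and 20489 without combination replicate 3, and 26568 and 23598 with limma-voom. They were 2036 and 1737 at an adjusted p under 0.01, 5950 and 6219 without TMM, and 8433 and 8008 with the replicate block. With only the 2 groups compared they were 19930 and 18728. Without both osimertinib DTP replicate 2 and combination replicate 3 they were 24167 and 19390. In the combination against DMSO, 14286 and 14232 became 37611 and 39221 with limma-voom, and 36893 and 32049 without both libraries. They were 4834 and 4964 at an adjusted p under 0.01 and 12445 and 15202 with the replicate block. Without DMSO replicate 2 they were 3943 and 4526, and without combination replicate 3 29786 and 27986. In the combination against osimertinib DTP, 0 became 2564 and 2442 with limma-voom, 103 and 95 without combination replicate 3, and 1828 and 1587 without both libraries. Among RP-labelled regions, 17 were called in osimertinib DTP against DMSO. The count was 5 at an adjusted p under 0.01, 11 without TMM, 29 with only the 2 groups compared, 29 with limma-voom and library quality weights, and 16 with the replicate block. Leaving out 1 library in turn gave 1 (without DMSO replicate 2) to 28 (without combination replicate 3) calls. Without both osimertinib DTP replicate 2 and combination replicate 3, a setting chosen after seeing the data, it was 29, 2 of them promoter regions. In the combination against osimertinib DTP, the count of 0 became 3 with limma-voom, 1 without combination replicate 3 and 3 without both libraries, and leaving out 1 library in turn gave 0 to 1. In the combination against DMSO, 17 became 10 at an adjusted p under 0.01, 44 with limma-voom (11 promoter regions) and 41 without both libraries, and leaving out 1 library in turn gave 8 (without DMSO replicate 2) to 29 (without combination replicate 3). The replicate block gave 16, 0 and 17 calls, 1 of the last a promoter region (RPL39L). The cause was not tested.

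The RP promoter median in osimertinib DTP against DMSO, 0.11, ranged from -0.25 to 0.38 when 1 library was left out and was -0.28 without both libraries. It was 0.09 with the replicate block. In the other 2 comparisons it moved by less than 0.35, the spread between replicates, in every alternative run. That spread is larger than the medians themselves, 0.21 for the combination against osimertinib DTP and 0.34 against DMSO. The median of the combination against osimertinib DTP changed sign without osimertinib DTP replicate 3. No called region changed sign under any alternative. Precision was limited by a median standard error of 0.53 per RP promoter region and by 3 libraries per group.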
